A study of Drosophila melanogaster with 9 samples.

Results

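The proteasome subunit genes of Drosophila melanogaster were followed across embryos mutant for cabut, control embryos and embryos labelled as overexpressing Cabut, a Krüppel-like zinc finger transcription factor. The genes were those whose single symbol in the array annotation begins with Prosalpha, Prosbeta, Pros and a digit, Rpn and a digit, or Rpt and a digit. This gave 40 genes of the 11982 genes with a single symbol, each measured by 1 probe set, so that no choice between probe sets was needed. Of these, 26 encode canonical subunits and 14 are duplicated copies, whose symbols end in T or R with or without a number. The rule itself uses symbols and no measured value, but it was set with earlier results of these data known. Prosbeta1, Rpt1, Rpt6, Rpn9, Rpn10 and Rpt6R were not analysed here, and Prosalpha1 shares a probe set with its copy Prosalpha1R.

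The proteasome is the large protease that degrades proteins tagged with ubiquitin. Its core particle is a barrel whose outer rings are built from alpha subunits, which gate the entrance, and whose inner rings are built from beta subunits, some of which carry the proteolytic sites. The regulatory particle caps the barrel. Its Rpt subunits form a ring of ATPases that unfolds substrates, and its Rpn subunits hold the scaffold, the ubiquitin receptors and the enzyme that removes ubiquitin. Most canonical subunits are essential to the cell, and in yeast and mammals their genes are transcribed in concert. Many of the duplicated copies in flies are known for expression in the testis.

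Transcripts were measured in whole dechorionated embryos at stages 10 to 13, on 9 Affymetrix arrays in 3 groups of 3. The mutant group held embryos homozygous for the cabut (cbt) allele cbtEP(2)2237E1, sorted as those without GFP from a stock balanced over Cy0, twi-eGFP. The control group was w1118. In the other group the epidermal driver 69B-Gal4 directed UAS-Cbt, and no embryos with the driver alone were analysed here. Each mutant or overexpression sample was RNA from about 1000 embryos. Whether the 3 samples of a group were collected separately is not stated, so a p-value here reflects sample-to-sample spread that may be purely technical. The driver acts in the epidermis while the RNA came from whole embryos. In such bulk RNA, fewer cells of a type and less RNA per cell cannot be told apart.

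The targeted gene went against the label in the overexpression group. The log2 level of cbt was 6.73 ± 1.02 (SD, n = 3) in w1118, 4.26 ± 0.42 (n = 3) in the mutant and 3.36 ± 0.33 (n = 3) in the other group, which is therefore called the arrays labelled overexpression. The cbt differences from w1118 were -2.46 (limma adjusted p = 0.19) in the mutant and -3.37 (limma adjusted p = 0.0436) in the arrays labelled overexpression. They come from 1 probe set, and whether it reads the UAS-Cbt transcript was not tested. The w1118 arrays did not form a single cluster. Replicates 1 and 3 correlated at r = 0.99 over all probe sets, and each correlated with replicate 2 at 0.89. Replicate 2 correlated with the arrays labelled overexpression at 0.97 to 0.98 and with the mutant arrays at 0.96 to 0.97. The poly-A spike-in controls of w1118 replicates 1 and 3 had means of 1.91 and 2.42, against 3.09 to 4.03 on the other 7 arrays. All 8 measured markers of nervous system, epidermis and trachea, amnioserosa and hemocytes lay above background on all 9 arrays, while the germ cell gene vas lay at background throughout. In their sum these tissue markers split the same control arrays as the subunits, but not every marker did. On w1118 replicates 1 and 3 their summed log2 level was 51.65 and 49.01. It was 38.36 on w1118 replicate 2, 38.27 to 42.43 in the mutant and 37.25 to 39.71 in the arrays labelled overexpression. All 8 were lower on w1118 replicate 2 than the mean of the other controls. However, repo stood at 6.13, 4.95 and 4.87 on w1118 replicates 1, 2 and 3, so that replicate 2 was not below both others. Pxn stood at 3.82, 2.64 and 3.11 on the same arrays. Against w1118, 6 of 8 had a lower mean in each of the other groups and 0 of 8 passed. The neuronal gene elav was at -1.24 and -1.76, grh at -1.29 and -1.36, vvl at -1.35 and -1.38, peb at -1.39 and -1.42 and srp at -1.21 and -1.23 in the mutant and the arrays labelled overexpression. The remaining markers did not follow in both groups. In the same order, repo of the nervous system was at -0.375 and 0.11. Doc1 of the amnioserosa was at 0.30 and -1.37, and Pxn of the hemocytes at 0.61 and 0.46. The part of tissue makeup or stage in the subunit differences was not tested. Background on an array is its highest Tag control probe set, which has no fly target (0.58 to 1.20).

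All 26 canonical subunits lay above background on all 9 arrays. Their levels between arrays spanned a wide range within a group, as the plot of levels by gene shows. None of the 40 genes passed the limma test in any comparison at an adjusted p under 0.05 over all 18769 probe sets. The counts were 0 of 40 for mutant against w1118, where 0.133% of all probe sets passed, 0 of 40 for the arrays labelled overexpression against w1118 (0.373% of all), and 0 of 40 for the arrays labelled overexpression against the mutant (0.256% of all). In the moderated F test of any difference among the 3 groups, 0 of 40 passed and 0.389% of all probe sets did. At an unadjusted p under 0.05 the members numbered 11, 15 and 13 in these 3 comparisons, against 9.0%, 31.9% and 18.9% of all probe sets, and 24.7% of all probe sets passed that level in the F test. The 11 were all higher in the mutant, where 3.84% of all probe sets were higher and 5.17% lower at that level. Of the 15, the arrays labelled overexpression exceeded w1118 for 13 and were below it for 2 (16.3% and 15.6% of all). Of the 13, 3 were higher and 10 lower in these arrays than in the mutant (9.71% and 9.17% of all). The first and second comparisons share the w1118 arrays.

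**Figure D1:**
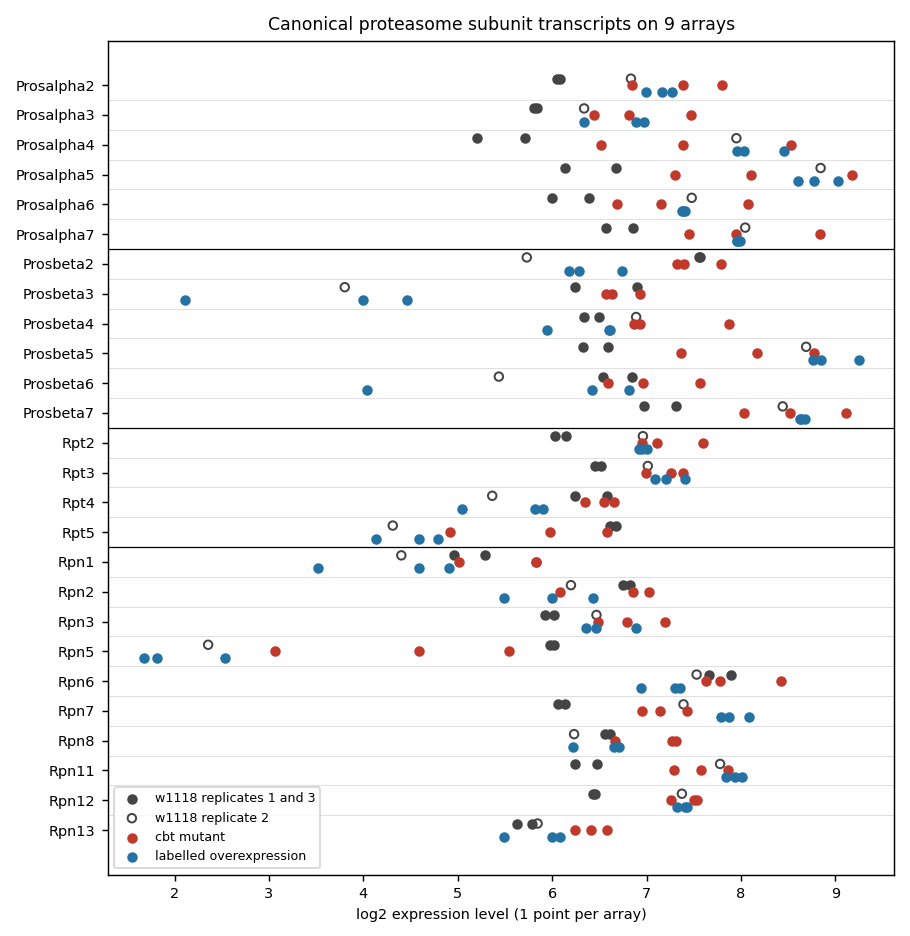
Log2 expression level of the 26 canonical proteasome subunit genes, 1 point per array. Rows are genes in the order alpha ring, beta ring, Rpt and Rpn. w1118 replicates 1 and 3 are filled dark points, w1118 replicate 2 is an open circle, mutant arrays are red and arrays labelled overexpression are blue. Levels of different genes come from different probes and are not compared. On every row the open circle lies outside the pair of dark points, above these for 16 genes and below for 10.

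In the mutant, 24 of 26 canonical subunits had a higher mean than in w1118, and their median log2 difference was 0.68. Over all 18769 probe sets, 52.0% were higher and the median was 0.01. Over the 2724 probe sets with a mean level above 5, the level of most canonical subunits, 68.9% were higher and the median was 0.33. In the arrays labelled overexpression 16 of 26 had a higher mean than in w1118, with a median of 0.50 (60.4% of all probe sets were higher), but single genes ranged from -2.78 to 1.86. Set directly against the mutant, these arrays had a higher mean for 8 of 26 and a lower one for 18, with a median of -0.26, where 61.4% of all probe sets were higher. The median of this comparison was -0.28 over the 6925 probe sets with a mean level above 2 and -0.02 over those above 5. Without w1118 replicate 2, 22 of 26 had a higher mutant mean than w1118, with a median of 0.83.

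**Figure D2:**
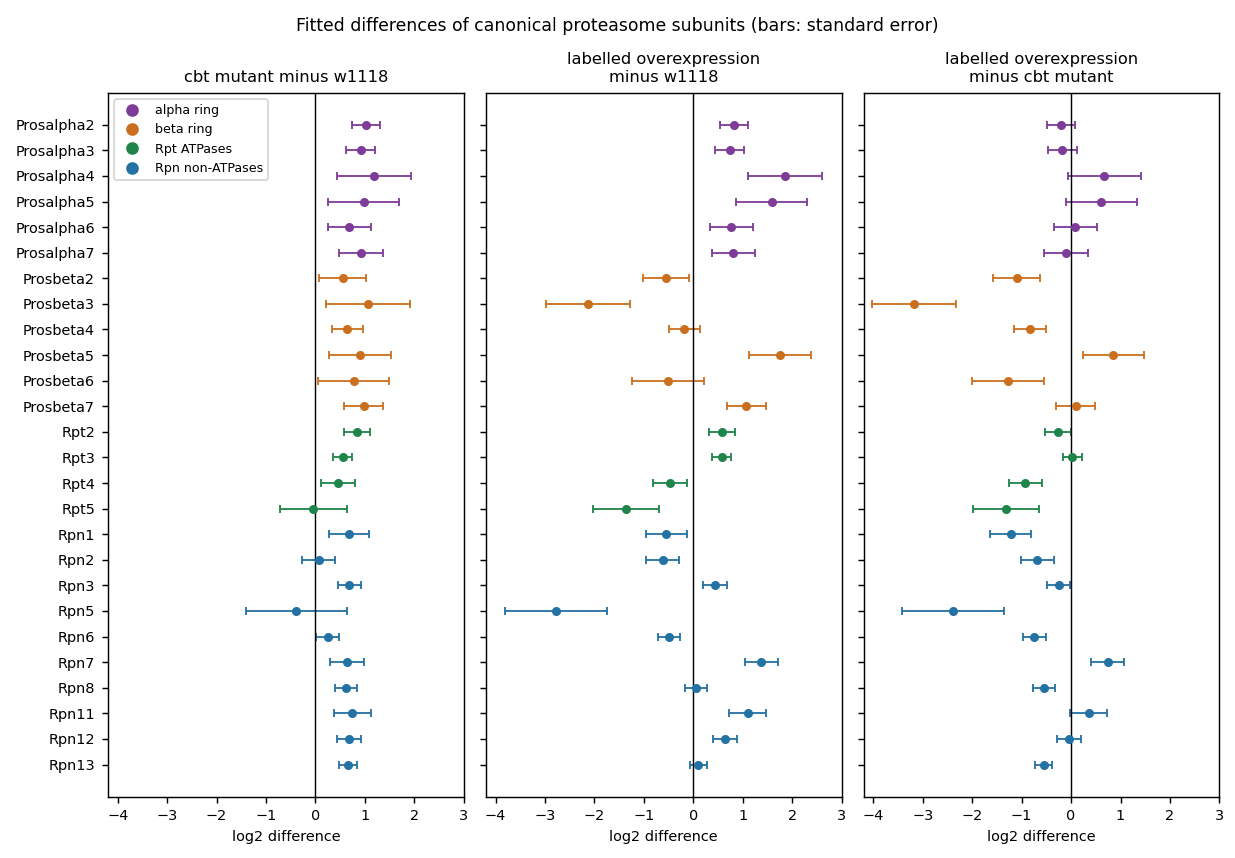
Fitted log2 differences of the 26 canonical subunits in the 3 comparisons, with standard errors from the limma fit to all 9 arrays. Points right of the line are higher in the group named first. In the left panel 24 of 26 points lie to the right, and in the middle panel the points run from -2.78 (Rpn5) to 1.86 (Prosalpha4).

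The alpha ring genes all pointed the same way against w1118. All 6 measured genes had higher means in the mutant, by 0.68 to 1.19, and in the arrays labelled overexpression, by 0.74 to 1.86. None of the 6 passed in either comparison. Prosalpha2 had log2 levels of 6.08, 6.83 and 6.05 on w1118 replicates 1, 2 and 3, of 7.80, 6.85 and 7.39 on the mutant arrays and of 7.0, 7.27 and 7.16 on the arrays labelled overexpression. Every mutant array therefore lay above every control array, although mutant replicate 2 did so by a small margin over w1118 replicate 2. Its difference was 1.03 (SE 0.29, limma adjusted p = 0.371) in the mutant and 0.82 (SE 0.29, adjusted p = 0.112) in the arrays labelled overexpression.

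Prosalpha4 showed the largest positive difference of all members in both comparisons with w1118. Its levels were 5.21, 7.95 and 5.71 on w1118 replicates 1, 2 and 3, then 8.53, 6.52 and 7.39 on the mutant arrays and 8.46, 7.96 and 8.03 on the arrays labelled overexpression. The mutant and control arrays overlapped because w1118 replicate 2 exceeded 2 of the 3 mutant arrays. The mutant difference was 1.19 (SE 0.74, adjusted p = 0.707), and that of the arrays labelled overexpression was 1.86 (SE 0.74, adjusted p = 0.138).

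Prosalpha5 followed the same order. It stood at 6.13, 8.84 and 6.68 in w1118, at 9.17, 7.30 and 8.11 in the mutant and at 9.03, 8.61 and 8.77 in the arrays labelled overexpression. Against w1118 the difference was 0.97 (SE 0.72, adjusted p = 0.773) in the mutant and 1.59 (SE 0.72, adjusted p = 0.169) in the arrays labelled overexpression. Prosalpha3, Prosalpha6 and Prosalpha7 were higher by 0.91, 0.68 and 0.92 in the mutant and by 0.74, 0.77 and 0.81 in the arrays labelled overexpression. On the arrays labelled overexpression Prosalpha6 and Prosalpha7 hardly varied, at 7.39 ± 0.02 and 7.97 ± 0.02 (SD, n = 3 each).

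The beta ring genes were all higher in the mutant mean, by 0.55 to 1.06, but did not point one way in the arrays labelled overexpression, where 2 of 6 had a higher mean than w1118 and 4 a lower one. The mutant values rested in part on w1118 replicate 2. Without it, 5 of 6 had a higher mutant mean, and the difference was -0.06 for Prosbeta2, 0.14 for Prosbeta3 and 0.35 for Prosbeta6. Prosbeta5, which carries the chymotrypsin-like site, had levels of 6.32, 8.69 and 6.59 in w1118, of 8.77, 7.36 and 8.17 in the mutant and of 9.25, 8.77 and 8.85 in the arrays labelled overexpression. The latter lay above all 3 controls. Its differences from w1118 were 0.90 (SE 0.62, adjusted p = 0.752) and 1.75 (SE 0.62, adjusted p = 0.115).

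Prosbeta2, which carries the trypsin-like site, showed another pattern. Its levels were 7.56, 5.73 and 7.56 in w1118, 7.79, 7.32 and 7.39 in the mutant and 6.28, 6.74 and 6.18 in the arrays labelled overexpression. Here w1118 replicate 2 was the lowest of the 9 arrays, and the arrays labelled overexpression lay below all mutant arrays. The difference from the mutant was -1.1 (SE 0.47, adjusted p = 0.261).

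Prosbeta3, a structural subunit without a catalytic site, had the largest difference of all members when the mutant was set against the arrays labelled overexpression. It stood at 6.93, 6.63 and 6.57 on the mutant arrays and at 2.12, 4.46 and 3.99 on the arrays labelled overexpression, with 6.24, 3.80 and 6.90 in w1118. The mutant arrays were close together and all above the arrays labelled overexpression, while w1118 replicate 2 lay within the range of the latter. The difference was -3.19 (SE 0.85, adjusted p = 0.143), and that of the arrays labelled overexpression from w1118 was -2.12 (SE 0.85, adjusted p = 0.138). The mutant mean of Prosbeta3 was higher than that of w1118 by 1.06 (SE 0.85, adjusted p = 0.796), and by 0.14 without w1118 replicate 2.

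Of the other beta genes, Prosbeta7 was higher than in w1118 by 0.98 in the mutant and 1.07 in the arrays labelled overexpression. Prosbeta4 was at 0.65 and -0.19 and Prosbeta6 at 0.77 and -0.51 in the same comparisons. Prosbeta6 rested partly on 1 array, since it stood at 4.04 on overexpression replicate 1 and at 6.82 and 6.42 on replicates 2 and 3.

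Among the ATPases of the regulatory particle, 3 of the 4 measured genes had a higher mutant mean than w1118, with a median of 0.50. Rpt2, Rpt3 and Rpt4 were higher by 0.84, 0.55 and 0.45, and Rpt5 was at -0.04. Without w1118 replicate 2, Rpt4 was at 0.10 and Rpt5 at -0.82. In the arrays labelled overexpression Rpt2 and Rpt3 were at 0.58 and 0.57 relative to w1118 and Rpt4 and Rpt5 at -0.47 and -1.36. Rpt5 stood at 6.61, 4.31 and 6.68 in w1118, at 4.92, 6.58 and 5.98 in the mutant and at 4.13, 4.79 and 4.59 in the arrays labelled overexpression. All arrays labelled overexpression lay below all mutant arrays, by -1.32 in the mean (SE 0.67, adjusted p = 0.321), and w1118 replicate 2 lay among the former.

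Of the 10 measured Rpn genes, 9 had a higher mutant mean than w1118, with a median of 0.65. Rpn13, a ubiquitin receptor, had levels of 5.79, 5.85 and 5.62 in w1118, of 6.25, 6.41 and 6.58 in the mutant and of 5.49, 6.08 and 6.0 in the arrays labelled overexpression. The control arrays were close together, including replicate 2, and every mutant array lay above these. The mutant difference was 0.66 (SE 0.18, adjusted p = 0.355), with the smallest p of the canonical subunits in that comparison. The lid scaffold subunit Rpn3 and Rpn8, the partner of Rpn11, were also without overlap, at 0.69 and 0.61.

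Rpn11, the metalloprotease that cleaves ubiquitin chains from substrates, stood at 6.48, 7.78 and 6.24 in w1118, at 7.29, 7.58 and 7.86 in the mutant and at 8.01, 7.94 and 7.85 in the arrays labelled overexpression. The arrays labelled overexpression lay above all controls, by 1.1 in the mean (SE 0.37, adjusted p = 0.109), and the mutant mean was higher by 0.74 (SE 0.37, adjusted p = 0.618). Rpn7, a lid scaffold subunit, had 6.14, 7.39 and 6.07 in w1118, 6.95, 7.14 and 7.43 in the mutant and 8.08, 7.87 and 7.78 in the arrays labelled overexpression. It was the only canonical subunit whose arrays labelled overexpression lay above all 6 other arrays. Its difference of 1.38 from w1118 (SE 0.34, adjusted p = 0.0937) had the smallest p of all 40 members in that comparison, and its difference from the mutant was 0.74 (SE 0.34, adjusted p = 0.285).

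Rpn6, which clamps the regulatory particle to the core, was the reverse case. It had 7.66, 7.53 and 7.89 in w1118, 7.62, 8.43 and 7.78 in the mutant and 6.94, 7.36 and 7.30 in the arrays labelled overexpression, which lay below all 6 other arrays. The difference was -0.49 from w1118 (SE 0.23, adjusted p = 0.178) and -0.74 from the mutant (SE 0.23, adjusted p = 0.171).

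Rpn5, another lid scaffold subunit, varied most. It stood at 5.98, 2.36 and 6.02 on w1118 replicates 1, 2 and 3, at 3.07, 5.54 and 4.59 on the mutant arrays and at 1.67, 2.54 and 1.81 on the arrays labelled overexpression. The mutant arrays lay between w1118 replicate 2 and the other controls. The mean of the arrays labelled overexpression was lower than that of w1118 by -2.78 (SE 1.03, adjusted p = 0.123) and than that of the mutant by -2.39 (SE 1.03, adjusted p = 0.262). The mutant mean differed from w1118 by -0.39 (SE 1.03, adjusted p = 0.967), and by -1.60 without w1118 replicate 2. The base scaffold subunits Rpn1 and Rpn2 were at 0.67 and 0.06 in the mutant relative to w1118 and at -0.55 and -0.62 in the arrays labelled overexpression, and Rpn12 was at 0.68 and 0.64.

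Counts of genes whose arrays did not overlap were read against the same counts over all probe sets. In the mutant, 5 of 26 canonical subunits lay wholly above w1118 (Prosalpha2, Prosalpha3, Rpn3, Rpn8 and Rpn13), against 5.38% of all probe sets, and 0 wholly below, against 4.42%. Among the 2724 probe sets with a mean level above 5, 9.14% lay wholly above. The arrays labelled overexpression lay wholly above w1118 for 7 of 26 (17.0% of all probe sets) and wholly below for 1 (12.0% of all). Over the probe sets with a mean level above 5, 25.1% lay wholly above, close to the 26.9% that the 7 of 26 make. These arrays lay wholly above the mutant for 1 of 26, where 22.4% of all probe sets did. They lay wholly below for 9, namely Prosbeta2, Prosbeta3, Prosbeta4, Rpt4, Rpt5, Rpn1, Rpn5, Rpn6 and Rpn13, where 16.2% of all probe sets did. Over the probe sets with a mean level above 5 that share was 28.7%.

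The median SD of the canonical subunits within a group was largest in the controls. It was 0.68 in w1118, 0.48 in the mutant and 0.27 in the arrays labelled overexpression. Over the probe sets with a mean level above 5 the w1118 value was 0.74. w1118 replicates 1 and 3 lay within 0.5 of each other for 23 of 26 genes, with a largest gap of 0.66. Replicate 2 lay above both for 16 genes and below both for 10, where over all probe sets it lay above both for 54.2% and below both for 33.7%. All 6 alpha genes were above, as were Prosbeta4, Prosbeta5, Prosbeta7, Rpt2, Rpt3, Rpn3, Rpn7, Rpn11, Rpn12 and Rpn13. Prosbeta2, Prosbeta3, Prosbeta6, Rpt4, Rpt5, Rpn1, Rpn2, Rpn5, Rpn6 and Rpn8 were below. Replicate 2 minus the mean of replicates 1 and 3 ran from -3.64 for Rpn5 and -2.76 for Prosbeta3 to 2.44 for Prosalpha5 and 2.49 for Prosalpha4. Its median size without regard to sign was 1.15, against 1.21 over the probe sets with a mean level above 5. Across the 26 genes the control arrays 1 and 3 correlated at r = 0.92, and replicate 2 correlated with these at 0.16 and 0.18. Replicate 2 correlated with the arrays labelled overexpression at 0.97 to 0.98 across the same genes, and with the mutant arrays at 0.72 to 0.92.

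The same order of genes appeared in a comparison that used other arrays. The difference of the arrays labelled overexpression from the mutant correlated across the 26 genes with w1118 replicate 2 minus replicates 1 and 3 at Pearson's r = 0.93 and Spearman's rho = 0.95. No array is shared by these differences, but all arrays were normalised together, and genes are not independent replicates. Across the 6925 probe sets with a mean level above 2 the values were 0.66 and 0.68. All 10 genes that were below on replicate 2 had a lower mean in the arrays labelled overexpression than in the mutant, and 8 of the 16 that were above had a higher one. Over the probe sets with a mean level above 5 the same shares were 83.6% and 73.5%.

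**Figure D3:**
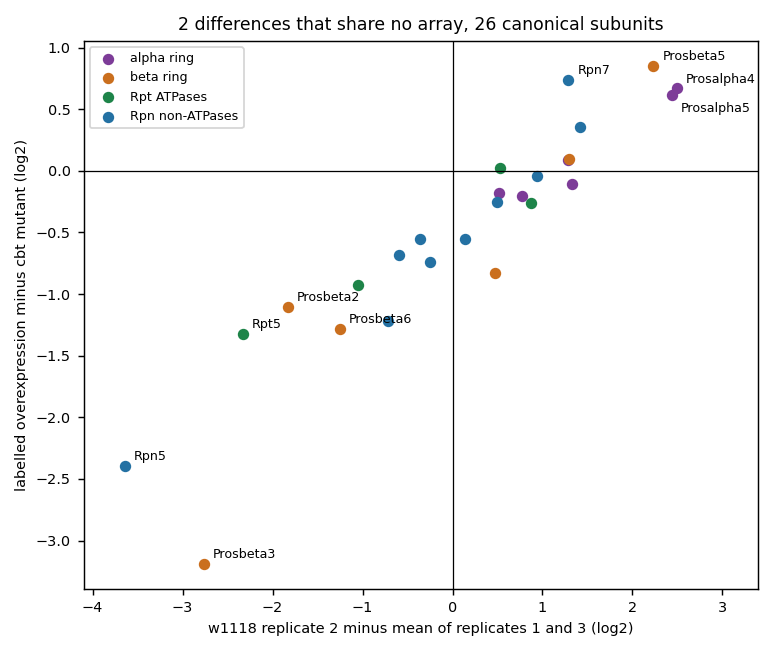
Difference of the arrays labelled overexpression from the mutant (vertical axis, log2) against w1118 replicate 2 minus the mean of w1118 replicates 1 and 3 (horizontal axis, log2), 1 point per canonical subunit and coloured by subunit group. The points run from Rpn5 and Prosbeta3 at the lower left to Prosbeta5, Prosalpha4 and Prosalpha5 at the upper right (r = 0.93 across 26 genes).

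Within the mutant group, replicate 1 set the core particle apart from the regulatory particle. All 12 core genes, 6 alpha and 6 beta, were highest on mutant replicate 1, by 0.32 to 1.57 over the mean of replicates 2 and 3. Of the 14 regulatory particle genes, 0 were highest on replicate 1 and 13 were lowest there, with differences from -2.00 (Rpn5) to 0.10 (Rpn12). Over the probe sets with a mean level above 5, replicate 1 was the highest mutant array for 28.7% and the lowest for 41.8%. The median SD within the mutant group was 0.48 for the canonical subunits, against 0.29 over those probe sets. The medians of the subunit groups on each array show this within the mutant group, where the core genes stood about 1.0 above their own means on replicate 1.

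**Figure D4:**
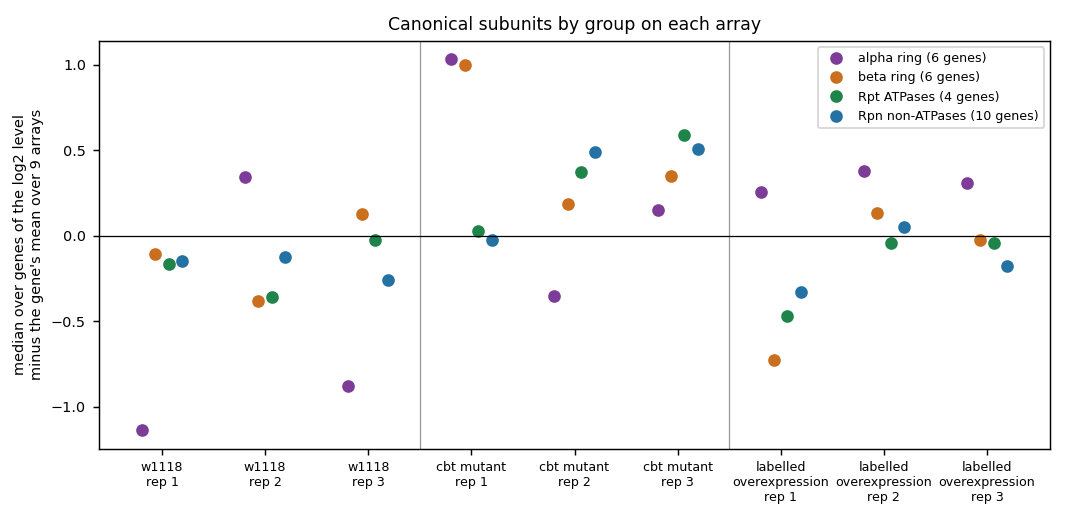
Median over the genes of each subunit group of the log2 level minus the gene's own mean over 9 arrays, 1 point per group and array. Alpha ring genes lie at -1.14 and -0.88 on w1118 replicates 1 and 3, at 0.34 on w1118 replicate 2 and at 1.03 on mutant replicate 1. Rpt and Rpn medians on mutant replicate 1 lie near 0 (0.03 and -0.03).

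The duplicated copies were mostly not above background. Of the 14 copies, 7 were at or below background on all 9 arrays (Prosalpha3T, Prosalpha6T, Prosbeta4R1, Prosbeta4R2, Prosbeta5R1, Prosbeta5R2 and Rpn12R), and differences between groups for these have no bound on either side. Prosbeta4R2 read 0.24, 0.42 and 0.10 in w1118, 0.08, 0.25 and 0.24 in the mutant and 0.32, 0.32 and 0.39 in the arrays labelled overexpression. Rpn13R was above background on w1118 replicate 1 alone, at 1.23. It read 0.53 and 0.53 on w1118 replicates 2 and 3, 0.55, 0.55 and 0.38 in the mutant and 0.31, 0.38 and 0.40 in the arrays labelled overexpression. Prosalpha4T1 and Prosbeta2R1 were above background on 1 and 2 arrays, and Rpt4R on 4. The testis genes dj, Mst84Da, aly and comr were at background on all 9 arrays, and Mst87F and fzo exceeded it on 1 and 2. The summed level of these 6 testis genes was 1.93 to 3.41 in w1118, 1.91 to 2.36 in the mutant and 2.71 to 3.37 in the arrays labelled overexpression. Of the 5 measured ovary and adult female genes, Cp38 exceeded background on 9 arrays, at 0.91 to 1.99. Yp2 did so on 8 arrays, Yp3 and Cp36 on 6 each and Yp1 on 0. A dim level above background therefore does not by itself show that a copy is expressed.

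**Figure D5:**
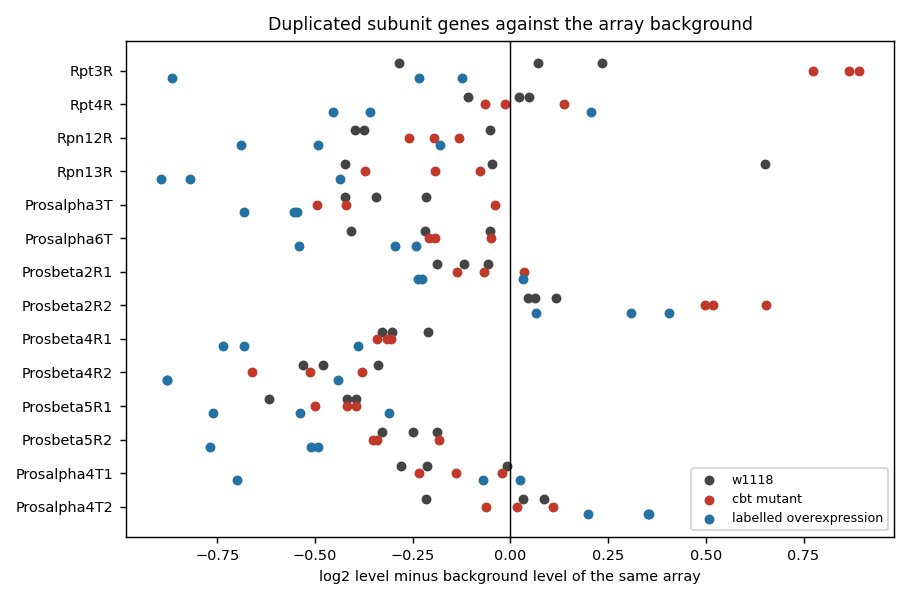
Log2 level of the 14 duplicated subunit genes minus the background level of the same array, 1 point per array and coloured by group. Most points lie left of 0, and Prosbeta2R2 is the only gene with all 9 arrays to the right. The 3 mutant arrays of Rpt3R lie to the right and its 3 arrays labelled overexpression to the left.

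Prosbeta2R2, Prosalpha4T2 and Rpt3R were the copies with most signal. None of their levels exceeded 1.63, against highest levels of 1.67 for Yp2 and 1.99 for Cp38. Prosbeta2R2 was above background on all 9 arrays but close to it, at 0.64, 1.0 and 0.69 in w1118, 1.24, 1.15 and 1.41 in the mutant and 1.27, 1.61 and 1.14 in the arrays labelled overexpression. Both of the latter groups lay above all controls, at differences of 0.49 (SE 0.16, adjusted p = 0.453) and 0.56 (SE 0.16, adjusted p = 0.0974). Prosalpha4T2 was above background on 7 of 9 arrays, with 0.61, 1.04 and 0.36 in w1118, 0.68, 0.65 and 0.86 in the mutant and 1.56, 1.40 and 1.18 in the arrays labelled overexpression. The arrays labelled overexpression lay above all others, by 0.71 from w1118 (SE 0.19, adjusted p = 0.0963) and 0.65 from the mutant (SE 0.19, adjusted p = 0.155). The background level was itself higher on these arrays (0.83 to 1.20) than on the mutant arrays (0.63 to 0.75).

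Rpt3R, a copy of the ATPase gene Rpt3, had the smallest p of all 40 members both for mutant against w1118 and for the arrays labelled overexpression against the mutant. It read 1.63, 1.5 and 1.53 in the mutant, 0.29, 1.02 and 0.81 in w1118 and 0.33, 0.97 and 0.71 in the arrays labelled overexpression. All 3 mutant arrays were above background and above the other 6 arrays, 2 of 3 w1118 arrays were above background and 0 of 3 arrays labelled overexpression were. The mutant was higher than w1118 by 0.84 (SE 0.22, adjusted p = 0.354) and at least 1.39-fold higher than the arrays labelled overexpression (adjusted p = 0.134). Rpt3 itself, at 0.55, did not separate the mutant from w1118 completely.

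The calls of the members depended on w1118 replicate 2. Without it, 16 of 40 passed as higher in the mutant than in w1118 and 0 as lower, where 9.11% and 12.1% of all probe sets did (21.2% in all). The 16 were 5 alpha genes (Prosalpha6 did not pass), Prosbeta5, Prosbeta7, Rpt2, Rpt3, Rpn3, Rpn7, Rpn11, Rpn12, Rpn13, Rpt3R and Prosbeta2R2. In the arrays labelled overexpression 18 passed as higher and 5 as lower (Prosbeta2, Prosbeta3, Rpt4, Rpt5 and Rpn5), against 19.6% and 21.0% of all probe sets (40.6% in all). Against the mutant 2 passed as higher and 5 as lower in these arrays, with 7.13% and 8.85% of all probe sets (16.0% in all), and 22 of 40 passed the F test, with 37.2% of all. Rpn12 was then higher in the mutant by 0.99 (adjusted p = 0.00143) and Rpn7 in the arrays labelled overexpression by 1.81 (adjusted p = 0.000154). The controls left in that setting are w1118 replicates 1 and 3, so genotype and what sets their spike-in controls apart cannot be told apart. Array weights, which gave w1118 replicate 2 a low weight, let 18 members pass as higher in the mutant than in w1118 and 0 as lower (12.9% and 15.5% of all probe sets). With these weights 19 passed as higher and 6 as lower in the arrays labelled overexpression than in w1118 (24.7% and 22.4%), 2 and 10 relative to the mutant (9.60% and 10.7%), and 28 in the F test (46.1%). Against w1118 replicate 2 alone, 20 of 26 canonical subunits had a higher mutant mean, with a median of 0.38, but only 3 of 6 alpha genes did, with a median of -0.07. In the arrays labelled overexpression, 16 of 26 had a higher mean than that array, with a median of 0.13, and 3 of 6 alpha genes did, with a median of 0.08.

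The comparison of the arrays labelled overexpression with the mutant can be made without any control array. Fitted on these 6 arrays, 2 of 40 members passed as higher in the arrays labelled overexpression, Rpn7 at 0.74 (adjusted p = 0.0306) and Prosalpha4T2 at 0.65 (adjusted p = 0.0294). Another 4 passed as lower, Prosbeta3 at -3.19 (adjusted p = 0.019), Prosbeta2 at -1.1 (adjusted p = 0.0198), Rpn5 at -2.39 (adjusted p = 0.0462) and Rpt3R (adjusted p = 0.0252), whose difference is known only as the bound given above. In that fit 6.28% of all probe sets passed as higher and 7.54% as lower, so the members' count of 6 of 40 lay close to the 13.8% of all probe sets that passed.

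Other genes of the ubiquitin pathway came from a list of 23, of which 19 were measured, and 0 of 19 passed in any of the 3 comparisons. Over all probe sets 0.133%, 0.373% and 0.256% passed. At an unadjusted p under 0.05 there were 3, 7 and 5 of 19, where 9.0%, 31.9% and 18.9% of all probe sets were. Their median difference was 0.00 in the mutant, -0.28 in the arrays labelled overexpression relative to w1118 and -0.42 in these relative to the mutant. Pomp, the chaperone that completes core assembly, was at 0.68 in the mutant (adjusted p = 0.682) and 0.73 in the arrays labelled overexpression (adjusted p = 0.238). REG, a proteasome activator cap, stood above all controls in both, at 0.55 (adjusted p = 0.463) and 0.81 (adjusted p = 0.0933). Of the 19 genes, 1 lay wholly above and 1 wholly below w1118 in the mutant, where 5.38% and 4.42% of all probe sets did. In the arrays labelled overexpression the counts were 2 and 5 of 19, against 17.0% and 12.0% of all. In the mutant and the arrays labelled overexpression, the AAA ATPase gene TER94, whose product extracts ubiquitinated proteins, was at 0.47 and 0.27. Its cofactor gene p47 was at 0.77 and 1.61, and Npl4 at 0.40 and -0.36. The proteasome deubiquitinases Usp14 and Uch-L5 were at 0.27 and -0.78 and at 0.44 and -0.18, and the regulator PI31 at 0.15 and -0.28.

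Among the genes for ubiquitin and its shuttles, RpL40 and Rad23 were low on w1118 replicate 2 and in the arrays labelled overexpression, as were Rpn5, Prosbeta3 and Rpt5. The polyubiquitin gene Ubi-p63E was at -0.23 in the mutant and -0.77 in the arrays labelled overexpression. Of the ubiquitin fusion genes, RpL40 was at 0.00 in the mutant and -1.34 in the arrays labelled overexpression, and RpS27A at -0.04 and -0.25. Rad23, a shuttle receptor, was at -0.68 and -2.49, with w1118 levels of 6.90, 4.64 and 7.36. RpL40 read 10.84, 9.88 and 10.86 in w1118. Of the transcription factors, cnc, whose mammalian relative Nrf1 drives proteasome genes, lay below all controls in both groups, at -0.97 (adjusted p = 0.277) and -0.79 (adjusted p = 0.097). Its levels were 6.38, 5.48 and 6.22 in w1118, 5.10, 4.92 and 5.13 in the mutant and 5.30, 5.10 and 5.32 in the arrays labelled overexpression. These values come from the brighter of the 2 probe sets of cnc. The partner of cnc, maf-S, was at 0.57 and 0.46 with w1118 replicate 2 at 8.87 and the other controls at 7.31 and 7.32. Dref was at -0.68 and -2.51 (adjusted p = 0.873 and 0.0974), with w1118 levels of 7.16, 4.99 and 7.62. Keap1 was at -0.58 and -1.07.

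Gene length moved with these differences to unequal degrees, and its part in the results was not tested beyond the values given here. Across the 26 genes, log2 gene length and the mutant difference from w1118 had a Spearman's rho of -0.62, and length and w1118 replicate 2 minus the other controls had -0.36, against -0.46 over 6075 probe sets. Length and the difference of the arrays labelled overexpression from the mutant had only -0.26 across the 26 genes. With the length trend removed from each array, 24 of 26 canonical subunits still had a higher mutant mean, with a median of 0.63, and 6 of 26 had a higher mean in the arrays labelled overexpression than in the mutant. Over the 4064 probe sets with a mean level above 2 and a gene no longer than the longest canonical subunit gene, 72.5% were higher in the mutant, with a median of 0.32.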

How the data were processed

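RNA of 9 embryo samples was hybridised to 1 array each. The table deposited by the authors holds log2 levels, 1 for each probe set on each array. The submitters' processing notes name RMA, affy and limma, with no versions. No chip definition or genome build could be read from those notes or the labels, so no coordinates are printed. Of 18952 probe sets, 183 Affymetrix controls were left out. Genes were named by the platform annotation.

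All 18769 probe sets were fitted with limma 3.58.1 in R 4.3.3, with a term per group over 9 arrays, moderated two-sided tests and Benjamini-Hochberg adjustment over all of them, with a threshold of 0.05. Background was the highest of 17 Tag controls on each array. An "at least" fold sets the brighter mean against the higher of that level and the dim probe's own. The number of arrays limits the precision. The procedure was run on simulated data with independent noise and no array effects. That run cannot speak to the split between the control arrays. Gene lengths came from the RefSeq table of Release 6 plus ISO1 MT and served only for the length trend, which was removed by lowess with a span of 0.3.

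The members and lists were chosen with earlier results of these data known. Values per array are given for the members with the 3 largest positive differences, 3 largest negative differences and 3 smallest p in each comparison, and for Prosbeta2, Prosbeta5, Rpn6, Rpn11 and Rpn13. The probe set shared by Prosalpha1 and Prosalpha1R was left out. Alternatives covered scaling, a filter on dim probe sets, the samples fitted, a replicate block, array weights, gene length, membership and the control array used.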

Additional observations from a re-analysis of the deposited data

How the results depend on the processing

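The count of 0 of 40 members in each of the 3 comparisons and in the F test stayed 0 with array medians set equal, cyclic loess, the filter on dim probe sets, the length trend removed, all probe sets of a gene averaged and members found by updated symbols. It also stayed 0 for the 26 canonical members alone, an alternative chosen after seeing the data. Leaving out 1 replicate gave 0 to 16 members for mutant against w1118, 0 to 23 for the arrays labelled overexpression against w1118, 0 to 7 for the arrays labelled overexpression against the mutant and 0 to 22 in the F test. The upper value was reached without w1118 replicate 2, and every other replicate gave 0. Array weights gave 18, 25, 12 and 28, where 5329, 8846, 3802 and 8658 of all probe sets passed, with a weight of 0.12 for w1118 replicate 2. With only the 2 groups fitted, 6 passed for the arrays labelled overexpression against the mutant. The median over 40 members for mutant against w1118, 0.58 as reported, was 0.37 with cyclic loess and 0.0846 with the mutant set against w1118 replicate 2 alone. The cause was not tested. Over all probe sets the counts of 25, 70 and 48 became 11, 17 and 30 with the replicate block, and 0 members passed there. Same-numbered arrays of different groups had correlations of deviations from -0.37 to 0.26. Whether samples with the same number were handled together is not stated, and these correlations cannot settle it. The 9 single-member differences examined, those with the 3 smallest p in each comparison, kept their direction under the alternatives in which single members were refitted. They were picked on these same arrays, so a kept direction adds little. With 3 arrays a group, differences near the spread of the controls are not resolved, and levels at background have no order.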

Other observations

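The probe set shared by Prosalpha1 and its copy Prosalpha1R, which belongs to no single gene, stood at 5.63, 6.34 and 5.62 in w1118, at 7.15, 6.34 and 6.53 in the mutant and at 6.29, 6.49 and 6.46 in the arrays labelled overexpression. As for the single alpha genes, mutant replicate 1 was the highest mutant array and w1118 replicate 2 the highest control. The differences from w1118 were 0.81 (limma adjusted p = 0.44) and 0.54 (adjusted p = 0.189).

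Of the maternal genes used as a check of stage, bcd read 4.26 on mutant replicate 1 and 3.93 on w1118 replicate 3 on one of its probe sets, against 0.24 to 1.09 on the other 7 arrays. Its other probe set read 0.70 to 1.15 on all 9 arrays. The maternal genes osk and grk reached at most 1.66 and 1.65.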
